A study of Mus musculus with 20 samples.

Results

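The phase II conjugation enzymes join a hydrophilic group to drugs, food toxins, hormones and bile constituents so that they can be carried out of the cell. Their genes were described in mouse proximal colon organoids, which are epithelial cultures grown in Matrigel. The members were all probes, other than control spots, whose gene name began with Ugt1, Ugt2, Gsta, Gstm, Gstp, Gstt, Gsto, Mgst or Sult. They comprised 51 of the 31541 gene names on the array, measured by 72 probes: 17 Sult, 9 Ugt2, 3 Ugt1, 4 Gsta, 7 Gstm, 2 Gstp, 4 Gstt, 2 Gsto and 3 Mgst genes.

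Total RNA was hybridised to 20 single-colour arrays. The organoids came from the proximal colon of male mice about 40 days old, heterozygous for a Cre-activated BrafV600E allele (Braf+/LSL). Selected organoids carried BrafV600E and had been selected for growth in base medium without niche factors (3 lines). BRAF organoids had received lentiviral Cre and were taken 5 months after induction, without that selection (3 lines). EV organoids had received the lentiviral backbone alone and so kept the silent allele (3 lines). Wild-type (WT) organoids were 1 culture, used for description only. Each culture was held for 48 h in ENSW, the medium with niche factors, and for 48 h in base medium, giving 1 array per culture and medium. The lines carry the numbers 1, 2 and 3 in all 3 types, and each number stands for 1 line. The p-values rest on the spread between lines pooled over all groups of the 18 arrays fitted. Groups with wide and narrow spread therefore share the same SE for a gene. Without a block, the fit counted both media of a culture as independent. The numbers of arrays limit the precision of every value.

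UDP-glucuronosyltransferases (Ugt) transfer glucuronic acid from UDP-glucuronate in the endoplasmic reticulum, and cytosolic sulfotransferases (Sult) transfer sulfate from the donor PAPS. Glutathione S-transferases of the alpha (Gsta), mu (Gstm), pi (Gstp), theta (Gstt) and omega (Gsto) classes, and the membrane-bound microsomal enzymes (Mgst), act on glutathione. In the gut these enzymes are known chiefly from the absorptive epithelium, which they equip as a barrier to ingested compounds. The Ugt1 genes share their last exons and differ in their first, and several Gst genes lie as tandem copies, so a probe may read more than 1 member.

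The probes on which the results turn are shown because their letters decide which transcripts they can read. All are 60 bases long, 5′ to 3′, with their positions in the mm9 assembly as the array design lists them and the strand taken from the order of the listed ends. Capitals mark the letters that differ between the Gsta1 and Gsta2 probes.
Ugt2b34, chr5:87318849-87318908, reverse strand: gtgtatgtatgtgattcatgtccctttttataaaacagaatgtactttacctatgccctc
Ugt1a6b, chr1:90115493-90115552, forward strand: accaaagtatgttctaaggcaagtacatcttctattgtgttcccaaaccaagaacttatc
Sult1b1, chr5:87943760-87943819, reverse strand: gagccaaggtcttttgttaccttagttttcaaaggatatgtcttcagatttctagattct
Gsta1, chr9:78090411-78090470, forward strand: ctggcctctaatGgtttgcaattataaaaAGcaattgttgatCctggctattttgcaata
Gsta2, chr9:78178856-78178915, reverse strand: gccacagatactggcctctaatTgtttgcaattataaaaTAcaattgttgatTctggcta
Gsta3, chr1:21255189-21255248, forward strand: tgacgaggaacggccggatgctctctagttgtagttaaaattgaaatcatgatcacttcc
Gstm5, chr3:107701101-107701160, forward strand: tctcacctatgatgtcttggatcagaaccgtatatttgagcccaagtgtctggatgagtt
Mgst3, chr1:169303928-169303987, reverse strand: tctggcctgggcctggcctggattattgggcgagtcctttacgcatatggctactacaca

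The Gsta1 and Gsta2 probes share 50 aligned bases with 4 mismatches, an identity of 92.0%, so their values may come in part from the same transcripts. The array's annotation lists the Ugt1a6b probe for Ugt1a10, Ugt1a6a, Ugt1a6b and Ugt1a7c. It may therefore read transcripts of all 4 and does not single out Ugt1a6b. The Ugt1a6a probe is listed for Ugt1a1, Ugt1a10, Ugt1a6a and Ugt1a7c, the Ugt1a10 probe also for Ugt1a9, and the Ugt2b36 probe also for Ugt2b37. The Gstm1 probe that was tested is placed on chromosome 5 by the array design, away from the other mu genes, while a second Gstm1 probe lies on chromosome 3. The exon or untranslated region that each probe covers was not determined here.

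Levels are given as log2 of the deposited processed signal minus each array's own 75th percentile, so that 0 is the signal of a probe at that percentile. Of the 51 members, 39 were tested, having a probe well above background on 3 or more of the 18 replicated arrays. The 12 others were Gstt4, Sult1c1, Sult1e1, Sult2a1, Sult2a2, Sult2a3, Sult2a6, Sult3a1 and Ugt2a3, above background on 0 arrays, and Sult2a4, Sult6b1 and Ugt2b1, above it on 1 array. The 39 tested genes are therefore not all members, and a gene could enter through the group in which it was high. Ugt2b5 and Ugt2b37 did so through EV, being above background there on 5 and 6 of 6 arrays. They were above it on 0 of 6 selected arrays and on 1 of 6 BRAF arrays. The filter itself therefore favoured a difference from EV for these genes, which stay in the counts of falls below. Ugt2b36 entered through EV and BRAF arrays without any selected array above background, so the filter favoured its fall in selected organoids. A difference was called at a limma adjusted p under 0.05 over 21423 genes.

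Each array had 59.6 to 65.2% of its spots above background. Pearson's r between lines within a group ran from 0.944 to 0.988. Selected line 1 stood apart from selected lines 2 and 3 on the second principal component over all genes, at 46.3 and 48.6 in ENSW and base against -70.1 to -46.1. The EV arrays shared no slide with BRAF or selected arrays, so a slide effect and a type effect cannot be told apart in comparisons with EV, while each culture's media lay on 1 slide. The Braf probe, which does not single out the V600E allele, averaged -2.34 ± 0.20 in BRAF and -3.37 ± 0.08 in EV organoids in ENSW (SD, n = 3), a difference of 1.04 ± 0.24 (SE, limma adjusted p = 0.0234). Dusp6, a feedback target of the ERK pathway on which BRAF acts, was higher by 1.45 ± 0.38 in BRAF than in EV organoids in ENSW (limma adjusted p = 0.0385). All 7 epithelial markers were above background on all 20 arrays. Of 10 blood and stromal markers, 4 were also above it on all 20 arrays. The endothelial, fibroblast and muscle markers Cdh5, Col1a1 and Des were above it on 0 arrays.

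**Figure D1:**
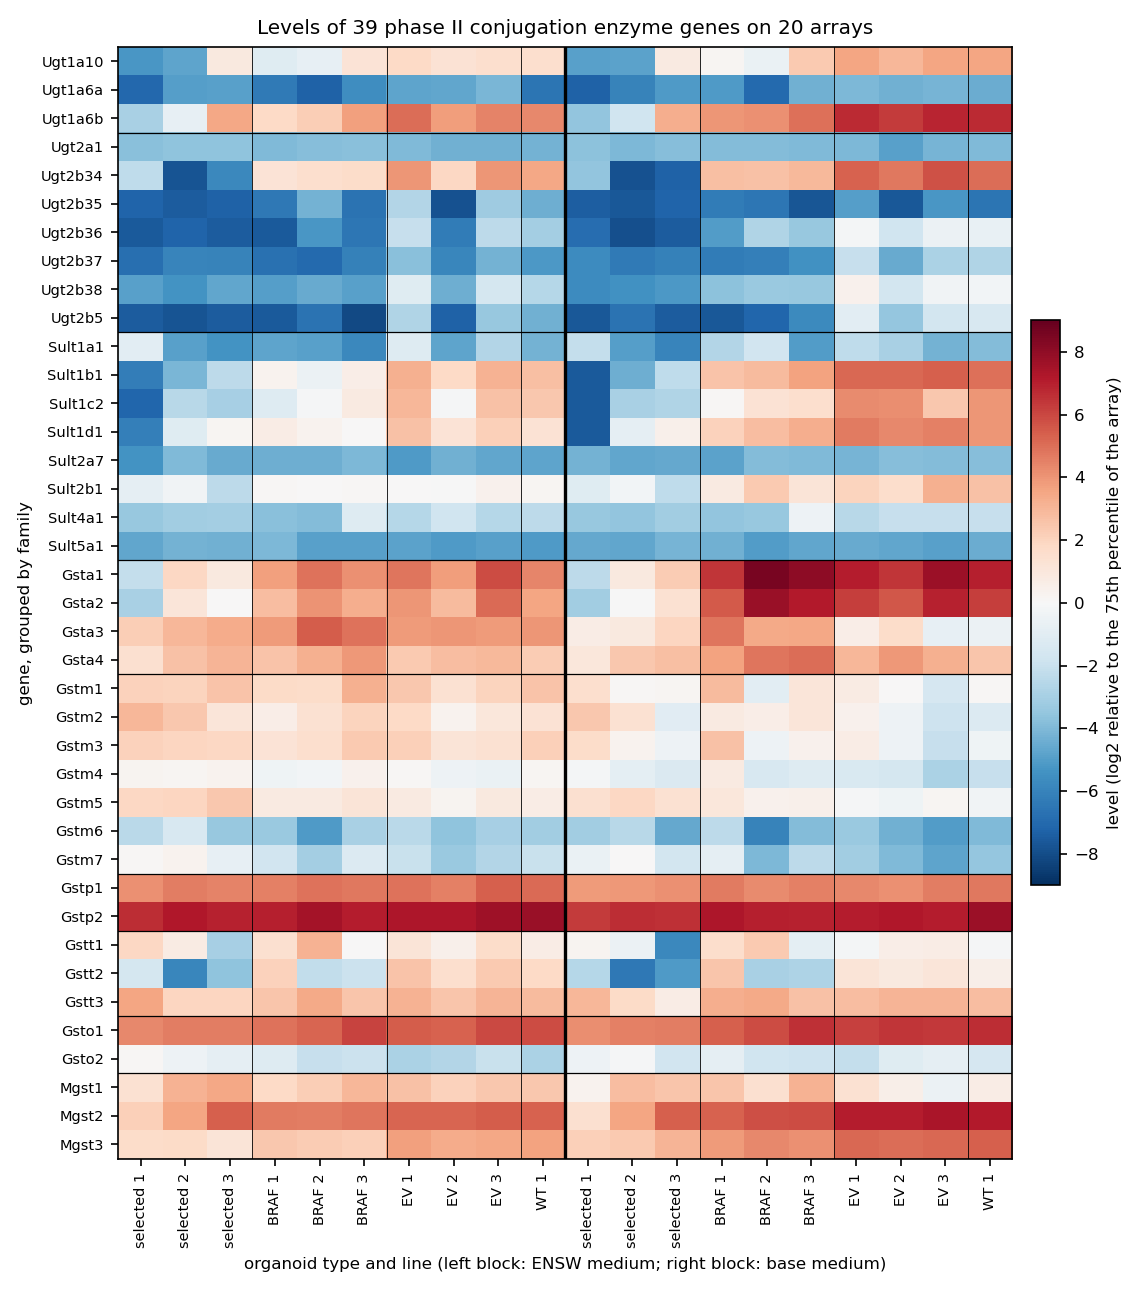
Heat map of the level (log2, 0 at the array's 75th percentile) of the 39 tested genes, 1 row per gene grouped by family, with 1 column per array; ENSW is the left block and base medium the right block, each with selected, BRAF, EV and WT organoids from left to right. Colours are to be read along a row, since probes differ in brightness: the Ugt2b34, Sult1b1, Gsta1 and Gsta2 rows are lower in every selected column than in every EV column of the same medium, while the 7 Gstm rows average higher in selected than in EV organoids.

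In selected organoids the enzymes fell far more often than they rose relative to EV organoids. In ENSW 14 of the 39 tested genes were called, 3 higher and 11 lower, against 13.8% of all genes called (8.7% higher, 5.15% lower). In base medium 22 were called, 3 higher and 19 lower, against 48.2% of all genes (25% higher, 23.2% lower). The median difference over the 39 genes was -1.06 in ENSW and -1.48 in base medium, against 0.11 and 0.02 over all genes, or -0.89 and -1.20 with genes below background in a whole group set at their bound. The ENSW count fell to 4 without EV line 1, 5 without EV line 3, and 9 without selected line 1 or selected line 2.

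Markers of mature cells moved with these groups. Of the 8 colonocyte markers, 6 were lower and 1 higher in ENSW and 7 lower in base medium. The summed linear level of the 8 was 19.6 to 24.8 in selected and 55.4 to 340.0 in EV organoids in ENSW, and 21.0 to 27.3 in selected and 1187 to 2386 in EV organoids in base medium. The colonocyte keratin gene Krt20 differed by -6.79 ± 1.17 in ENSW (limma adjusted p = 0.00255) and by -10.16 ± 1.17 in base medium (limma adjusted p = 1.03e-05). Of the 7 goblet cell markers, 5 were lower in each medium, and their summed level in base medium was 1.22 to 23.2 in selected and 298 to 573 in EV organoids. Among 4 enteroendocrine markers 2 were lower in ENSW and 4 in base medium, among 7 general epithelial markers 1 and 5 were lower, and of 5 tested stem and cycling markers 0 were called in ENSW and 3 were higher in base medium. Of 2 tested liver genes 1 was higher in each medium, and of 6 tested blood and stromal genes 0 were called. The markers' part in the enzyme differences was not tested, and in these bulk samples fewer cells of a type and less RNA per cell cannot be told apart.

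Among the glucuronosyltransferases, Ugt2b34, a member of the Ugt2b subfamily, showed the largest difference of the 39. Its levels in ENSW were -2.25, -7.75 and -5.82 in selected lines 1, 2 and 3, against 3.99, 1.85 and 3.97 in EV lines 1, 2 and 3. In base medium they were -3.52, -7.82 and -7.29 in selected lines, against 5.30, 4.74 and 5.70 in EV lines. The groups did not overlap in either medium, and only selected line 1 was above background among selected cultures. The differences were -8.54 ± 1.20 in ENSW (limma adjusted p = 0.000682) and -11.46 ± 1.20 in base medium (limma adjusted p = 5.38e-06), with ± giving the SE here and for all differences below.

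The Ugt1 probes separated the selected lines from each other. The Ugt1a6b probe, listed for 4 Ugt1 genes, gave -3.58, -1.81 and 3.24 in selected lines and 6.73, 6.30 and 6.86 in EV lines in base medium. Line 3 lay far above the other selected lines but below all EV lines. The difference was -7.35 ± 1.54 (limma adjusted p = 0.00124). In ENSW its levels were -2.92, -0.76 and 3.45 in selected lines and 5.04, 3.74 and 4.48 in EV lines, and the difference of -4.49 ± 1.54 missed the threshold (limma adjusted p = 0.0666) but passed it with the culture as a random block (limma adjusted p = 0.0301).
Ugt1a10, an intestinal Ugt1 enzyme, followed the same line order, with -4.89, -4.82 and 0.82 in selected and 3.52, 2.96 and 3.55 in EV lines in base medium, a difference of -6.31 ± 1.59 (limma adjusted p = 0.00454). In ENSW the difference was -4.56 ± 1.59, with a limma adjusted p of 0.0706, or 0.0322 with the culture as a block. The shared Ugt1a6a probe was not well above background in any selected array in base medium and was at least 2.24-fold lower there (limma adjusted p = 0.0424).

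Of the 7 tested Ugt2 genes, 4 fell in ENSW, and 5 fell and 1 rose in base medium. Ugt2b36 was not well above background on any selected array, where its levels ran from -7.93 to -6.86 over both media, against -0.18, -1.79 and -0.51 in EV lines in base medium. It was at least 3.41-fold lower in ENSW (limma adjusted p = 0.0181) and at least 23.6-fold lower in base medium (limma adjusted p = 6.32e-05). The ENSW call was lost in 2 of 6 fits without 1 array (limma adjusted p up to 0.0869) and with normexp or the authors' values (up to 0.195). Ugt2b38 was above background on 1 of 3 selected arrays in ENSW and on 0 in base medium. It gave -4.92, -5.36 and -4.67 in selected and -1.07, -4.38 and -1.60 in EV lines in ENSW, a difference of -2.64 ± 0.65 (limma adjusted p = 0.0186), and was at least 28.1-fold lower in base medium (limma adjusted p = 3.37e-05). The Ugt2b38 call in ENSW was lost in 3 of 6 fits without 1 array (limma adjusted p up to 0.0894) and with normexp (0.141). EV line 2 was the lowest EV line for all of Ugt2b34, Ugt2b36 and Ugt2b38 in ENSW.
Ugt2b5 and Ugt2b37 were likewise below background on all selected arrays. In base medium Ugt2b5 was at least 10.4-fold lower (limma adjusted p = 0.000438) and Ugt2b37 at least 4.65-fold lower (limma adjusted p = 0.00115). Both genes entered through EV, so these p-values carry the filter's choice and are not an independent test. The base calls were kept under every other planned setting, no filter among them. Those refits used the same values and are not an independent test either. Ugt2b5 was also called in ENSW, at least 1.80-fold lower (limma adjusted p = 0.0457), but the call was lost in 5 of 6 fits without 1 array (up to 0.191) and with normexp, the authors' values, no filter or the slide as a random block (up to 0.349). Ugt2a1, known from the olfactory epithelium, was the gene that rose, by 0.52 ± 0.18 in base medium (limma adjusted p = 0.0311). The Ugt2a1 call was lost in 3 of 6 fits without 1 array, with a limma adjusted p of 0.152 without EV line 2 in base medium. It was also lost with normexp (limma adjusted p = 0.802).

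Among the sulfotransferases, 2 of 8 tested genes fell in ENSW and 4 in base medium, and 0 rose. Sult1b1, which acts on phenols and thyroid hormones, gave -7.57, -4.39 and -2.25 in selected and 5.19, 5.18 and 5.40 in EV lines in base medium. The EV lines lay within a narrow band, while the selected lines were spread widely and all lower. The difference was -9.99 ± 1.08 in base medium (limma adjusted p = 6.69e-06) and -6.97 ± 1.08 in ENSW (limma adjusted p = 0.00135). Sult1c2 gave -7.54, -2.93 and -2.69 in selected and 4.28, 4.19 and 2.40 in EV lines in base medium. It fell by 8.01 in base medium (SE 1.36, limma adjusted p = 0.000239) and fell by 6.04 in ENSW (limma adjusted p = 0.0116).
Sult1d1, a catecholamine sulfotransferase of the mouse, gave -7.56, -0.84 and 0.45 in selected and 4.69, 4.34 and 4.51 in EV lines in base medium. Selected line 1 was well below the other selected lines, which were themselves below EV. The difference of -7.17 ± 1.71 was called (limma adjusted p = 0.00321), while that in ENSW, -4.33 ± 1.71, was not (limma adjusted p = 0.106). Sult2b1, which sulfates cholesterol and other steroids, gave -1.11, -0.27 and -2.30 in selected and 2.02, 1.59 and 3.21 in EV lines in base medium, a difference of -3.50 ± 0.59 (limma adjusted p = 0.000214). The genes Sult1b1 and Sult1d1, and the untested Sult1e1, lie within 61 kb on chromosome 5 in mm9.

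The glutathione transferases differed between classes and also within them. Of the 4 alpha genes, Gsta1 and Gsta2, whose probes are 92.0% identical, fell in both media. Gsta3 and Gsta4 were not called in either medium. The difference for Gsta3 was -1.02 in ENSW and 0.69 in base medium. Gsta1 gave -2.36, 0.87 and 2.28 in selected and 7.09, 6.41 and 7.71 in EV lines in base medium, a difference of -6.81 ± 1.12 (limma adjusted p = 0.000184). In ENSW it gave -2.14, 1.86 and 0.86 in selected and 4.80, 3.73 and 5.89 in EV lines, a difference of -4.62 ± 1.12 (limma adjusted p = 0.0167). No selected array reached an EV array, and line 1 was the lowest selected line in each medium. The near-identical Gsta2 probe gave differences of -4.58 ± 1.11 in ENSW (limma adjusted p = 0.0169) and -6.85 ± 1.11 in base medium (limma adjusted p = 0.000166). The ENSW calls of Gsta1 and Gsta2 were each lost in 3 of 6 fits without 1 array (limma adjusted p up to 0.0741 and 0.0749).
The theta gene Gstt2 gave -2.54, -6.45 and -5.11 in selected and 1.19, 0.89 and 1.06 in EV lines in base medium, and was above background on 1 of 3 selected arrays there. The difference was -5.75 ± 1.52 in base medium (limma adjusted p = 0.00618) and -5.82 ± 1.52 in ENSW (limma adjusted p = 0.0232). The Gstt2 call in ENSW was lost in 4 of 6 fits without 1 array (limma adjusted p up to 0.0931). Gstp2, of the pi class, fell by 0.57 in base medium (SE 0.18, limma adjusted p = 0.017), the smallest fall called.

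The difference was above 0 for 7 of 7 mu genes in both media, and 2 rose in each, 28.6% of the class against 8.7% of all genes called higher in ENSW and 25% in base medium. Gstm5 gave 1.45, 1.86 and 1.40 in selected and -0.12, -0.39 and 0.18 in EV lines in base medium, with every selected line above every EV line. It rose by 1.68 ± 0.24 in base medium (limma adjusted p = 5.22e-05) and by 1.42 ± 0.24 in ENSW (limma adjusted p = 0.00223). Gstm7 gave -0.60, 0.06 and -1.69 in selected and -3.10, -4.00 and -4.72 in EV lines in base medium, a difference of 3.20 ± 0.74 (limma adjusted p = 0.00254), and a difference of 2.57 ± 0.74 in ENSW (limma adjusted p = 0.0348), a call lost in 5 of 6 fits without 1 array (up to 0.105) and with the slide as a random block (0.0663). Apart from the tested Gstm1 probe, the mu probes lie within 146 kb on chromosome 3 in mm9. For Gstm3, which was not called, a second probe gave -3.93 in ENSW and -4.46 in base medium where the brightest gave 0.40 and 1.09, so the sign for that gene depends on the probe.

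The omega class, whose enzymes reduce dehydroascorbate, was split. Gsto1 gave 4.15, 4.53 and 4.58 in selected and 6.13, 6.46 and 6.35 in EV lines in base medium, a difference of -1.89 ± 0.31 (limma adjusted p = 0.000194). In ENSW it also fell, by 1.06 (limma adjusted p = 0.0392), and leaving out any of the 6 arrays ended this call. Gsto2 gave 0.08, -0.47 and -0.78 in selected and -2.85, -2.63 and -2.03 in EV lines in ENSW, a difference of 2.11 ± 0.46 (limma adjusted p = 0.0103).
Of the microsomal enzymes, Mgst3, which uses glutathione on lipid peroxides and in leukotriene synthesis, had the smallest adjusted p of the 39. It gave 2.12, 2.34 and 3.04 in selected and 5.19, 5.00 and 5.20 in EV lines in base medium, and 1.62, 1.73 and 1.17 in selected and 3.68, 3.32 and 3.49 in EV lines in ENSW. It fell by 2.63 in base medium (SE 0.22, limma adjusted p = 1.27e-06) and by 1.99 in ENSW (SE 0.22, limma adjusted p = 0.000117). Mgst2, of related function, gave 1.42, 3.57 and 5.35 in selected and 7.07, 7.07 and 7.37 in EV lines in base medium, a difference of -3.73 ± 0.80 (limma adjusted p = 0.00145).

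**Figure D2:**
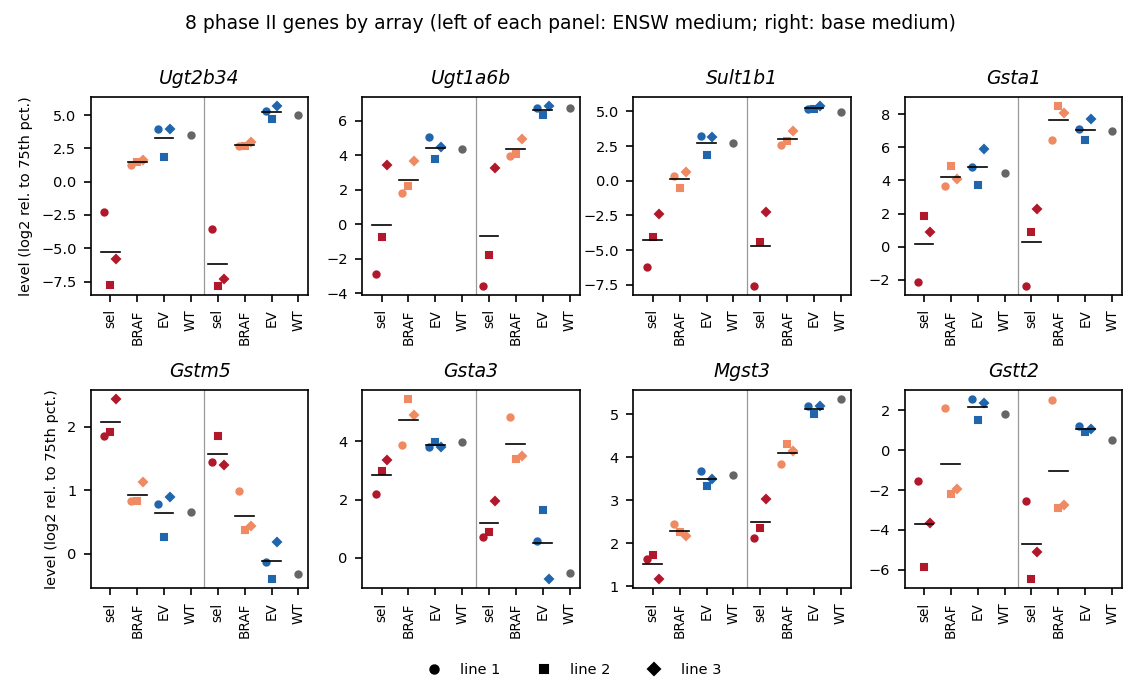
Level (log2, 0 at the array's 75th percentile, y axis) of 8 genes on every array, with selected, BRAF, EV and WT organoids from left to right in ENSW (left of each panel) and in base medium (right); the marker shape gives the line and the bar the mean of 3 lines. Ugt2b34, Sult1b1, Gsta1 and Mgst3 are lower in every selected line than in every EV line, Gstm5 is higher, and the Ugt1a6b panel shows selected line 3 far above lines 1 and 2.

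The comparison of selected with BRAF organoids asks what differs between organoids with the same active allele, before and after selection. In ENSW 2 of 39 genes were called, 1 higher and 1 lower, against 0.607% of all genes (0.154% higher, 0.453% lower). Ugt2b34 gave -2.25, -7.75 and -5.82 in selected and 1.25, 1.48 and 1.63 in BRAF lines, a difference of -6.72 ± 1.20 (limma adjusted p = 0.0217). Gstm5 gave 1.85, 1.92 and 2.44 in selected and 0.83, 0.83 and 1.13 in BRAF lines, a difference of 1.14 ± 0.24 (limma adjusted p = 0.0473), which did not pass with the culture as a block (limma adjusted p = 0.0778). Without 1 array at a time the count was 1 without selected line 1 and 0 without any other of the 6 arrays. With the slide as a fixed block neither call remained (limma adjusted p = 0.0946 for Ugt2b34 and 0.192 for Gstm5). With the line as a fixed block 3 were called, Sult1b1 among them (limma adjusted p = 0.0403).

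In base medium 12 genes were called, 1 higher and 11 lower, against 9.77% of all genes (4.63% higher, 5.14% lower), and the median difference of the 39 was -1.23 against -0.03 over all genes. All 4 alpha genes fell. Gsta1 gave -2.36, 0.87 and 2.28 in selected and 6.45, 8.51 and 8.08 in BRAF lines, a difference of -7.42 ± 1.12 (limma adjusted p = 0.00138), and Gsta2 differed by -7.38 ± 1.11 (limma adjusted p = 0.00137). Gsta3 gave 0.70, 0.89 and 1.97 in selected and 4.84, 3.40 and 3.50 in BRAF lines, a difference of -2.72 ± 0.58 (limma adjusted p = 0.011). Gsta4, which conjugates the lipid peroxidation product 4-hydroxynonenal, fell by 2.43 (SE 0.53, limma adjusted p = 0.0117).
Ugt2b34 differed by -8.99 ± 1.20 (limma adjusted p = 0.000574), against BRAF levels of 2.72, 2.67 and 2.94. Sult1b1, at 2.60, 2.85 and 3.60 in BRAF lines, differed by -7.75 ± 1.08 (limma adjusted p = 0.000821), and Sult1c2 by -5.36 ± 1.36 (limma adjusted p = 0.0245). Sult2b1 differed by -2.69 ± 0.59 (limma adjusted p = 0.012). None of these groups overlapped between selected and BRAF lines.
The other calls were Ugt2b36, at least 3.18-fold lower (limma adjusted p = 0.0261), Mgst3, lower by a difference of -1.59 ± 0.22 (limma adjusted p = 0.000821), Gsto1, with -1.54 ± 0.31 (limma adjusted p = 0.00833), and Gstm5, higher by 0.97 ± 0.24 (limma adjusted p = 0.0212). The differences of Ugt1a6b (-5.04) and Sult1d1 (-5.35) missed the threshold, with limma adjusted p of 0.0531 and 0.0631, and passed with the culture as a block, at 0.0247 and 0.0338. With the line as a fixed block 16 genes were called, all 12 of these among them, with Mgst2 (limma adjusted p = 0.0423) and Gstt2 (limma adjusted p = 0.0235) added. With the slide as a fixed block 4 of the 12 remained, and limma adjusted p was 0.0827 for Gsta1, 0.0822 for Gsta2, 0.207 for Gsta3, 0.43 for Sult1c2, 0.267 for Ugt2b36, 0.067 for Gsto1 and 0.181 for Gstm5. The count was 7 without BRAF line 2. Within the slide that held selected line 3 and BRAF line 1, the median member difference was -0.07 in ENSW (19 genes higher, 20 lower) and -0.92 in base medium (9 higher, 30 lower). The shares of all genes higher and lower within that slide were not computed. Of the 8 colonocyte markers 2 were lower in ENSW and 6 in base medium, where their summed level was 21.0 to 27.3 in selected and 159 to 457 in BRAF organoids. Their part in the differences was not tested.

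**Figure D3:**
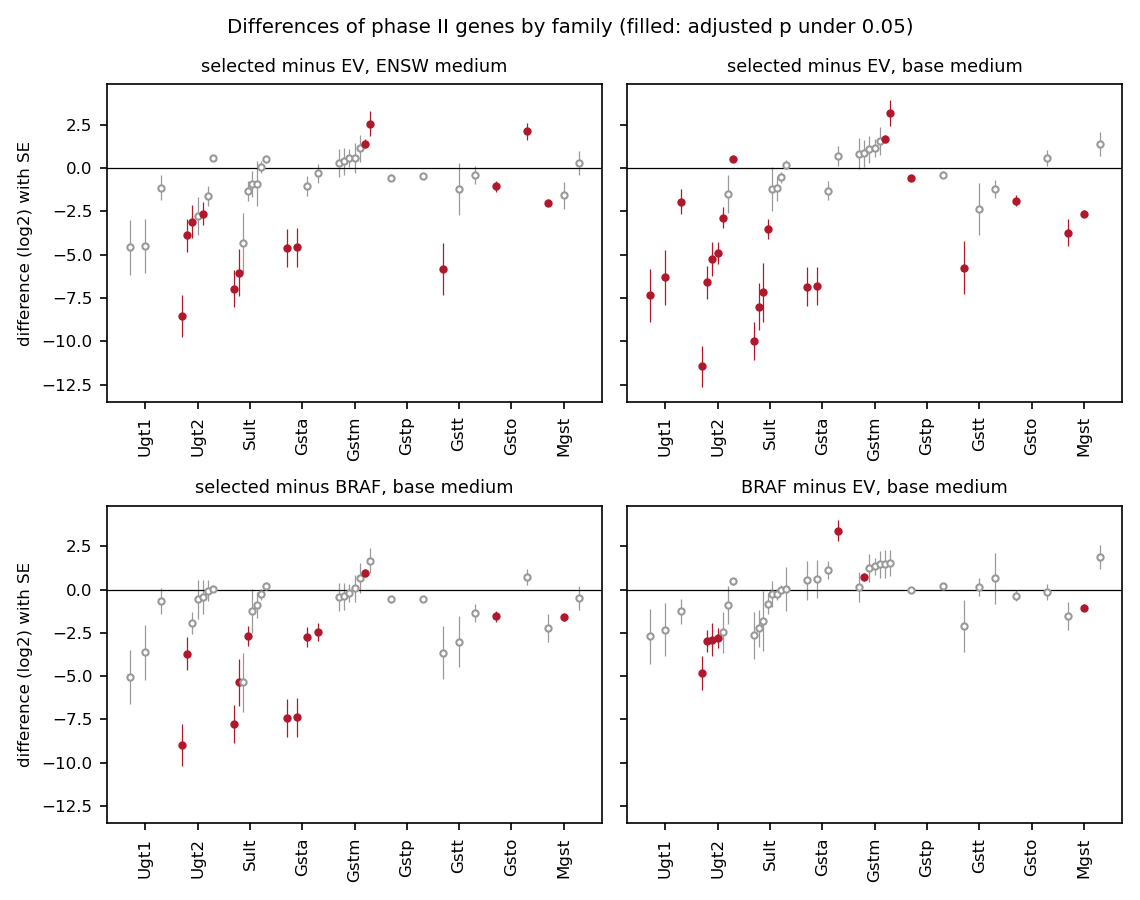
Difference (log2, y axis) with its SE for each tested gene, arranged by family along the x axis, in 4 comparisons: selected minus EV in ENSW and in base medium, selected minus BRAF in base medium, and BRAF minus EV in base medium. Filled points are called; Ugt, Sult and Gsta points lie as low as -11.46 in selected minus EV, and all 7 Gstm points there lie above 0.

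BRAF organoids differed from EV organoids in fewer of these genes. In ENSW 2 of 39 were called, 0 higher and 2 lower, against 6.22% of all genes (4.8% higher, 1.41% lower). In base medium 7 were called, 2 higher and 5 lower, against 31.1% of all genes (17.9% higher, 13.1% lower), a share of members below that background. The median difference of the 39 was -0.58 in ENSW and -0.16 in base medium, against 0.06 and 0.03 over all genes, and with bounds it was -0.58 and -0.03. Without 1 array at a time the ENSW count was 1 to 5, at 5 without EV line 2 and at 1 without any other, and the base count rose to 11 without BRAF line 2.

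Mgst3 fell in both media. It gave 2.44, 2.25 and 2.17 in BRAF and 3.68, 3.32 and 3.49 in EV lines in ENSW, a difference of -1.21 ± 0.22 (limma adjusted p = 0.00689). In base medium it gave 3.84, 4.30 and 4.14 in BRAF and 5.19, 5.00 and 5.20 in EV lines, a difference of -1.04 ± 0.22 (limma adjusted p = 0.00338). Levels in BRAF lines thus lay between those in selected and EV lines in each medium, without overlap.
The 4 other genes that fell were all Ugt2b. Ugt2b38 gave -3.72, -3.34 and -3.41 in BRAF and 0.38, -1.62 and -0.32 in EV lines in base medium, a difference of -2.97 ± 0.65 (limma adjusted p = 0.00404), and a difference of -2.45 ± 0.65 in ENSW (limma adjusted p = 0.0416). The ENSW call was lost in 5 of 6 fits without 1 array (up to 0.183) and with normexp, the authors' values or no filter (up to 0.248). Ugt2b36 gave -5.04, -2.68 and -3.43 in BRAF and -0.18, -1.79 and -0.51 in EV lines in base medium, a difference of -2.89 ± 0.95 (limma adjusted p = 0.0336). That call was lost in 4 of 6 fits without 1 array (limma adjusted p up to 0.137). Ugt2b5 and Ugt2b37 were above background on 1 of 3 BRAF arrays in base medium, and differed by -4.82 ± 0.96 (limma adjusted p = 0.00207) and -2.80 ± 0.59 (limma adjusted p = 0.00308). As these genes entered through EV, their p-values carry the filter's choice here too.

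Gsta3, which in the mouse detoxifies the aflatoxin epoxide, rose. In base medium it gave 4.84, 3.40 and 3.50 in BRAF and 0.59, 1.63 and -0.72 in EV lines, a difference of 3.41 ± 0.58 (limma adjusted p = 0.000756). In ENSW it gave 3.87, 5.46 and 4.89 in BRAF and 3.80, 3.98 and 3.81 in EV lines, so that BRAF line 1 lay among the EV lines and BRAF lines 2 and 3 above them. Gstm5 rose by 0.71 ± 0.24 in base medium (limma adjusted p = 0.0347), a call lost with the culture as a block (limma adjusted p = 0.0566). It was also lost with no filter, with the slide as a random block, and in 3 of 6 fits without 1 array (limma adjusted p up to 0.146). The genes with the deepest falls in selected organoids were not called here: Ugt2b34 differed from EV by -1.82 in ENSW (limma adjusted p = 0.409) and -2.47 in base medium (limma adjusted p = 0.133), and Sult1b1 by -2.58 (limma adjusted p = 0.171) and -2.24 (limma adjusted p = 0.13). Colonocyte markers were lower for 4 of 8 in ENSW and 5 of 8 in base medium, and goblet markers for 2 and 5 of 7. Their part was not tested.

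The response to base medium was measured on cultures held in both media. The main fit compared group means and did not use this pairing, which the culture block does. In EV organoids 11 of 39 genes were called, 4 higher and 7 lower, against 42.2% of all genes (23.4% higher, 18.8% lower), a share of members below that background. With the culture as a random block 25 were called, 16 higher and 9 lower, against 58.4% of all genes. Normexp background correction or the authors' deposited values each gave 9 higher and 7 lower, so the split between higher and lower depended on how the signal was processed. The count was 7 without EV line 1 or EV line 2 in ENSW and 4 without EV line 3 in base medium. Colonocyte markers rose in 7 of 8 cases in the same comparison, and their part was not tested.

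Glucuronidation and sulfation genes were among those that rose in EV organoids. Sult2b1 gave 2.02, 1.59 and 3.21 in base medium and 0.05, -0.03 and 0.39 in ENSW, a difference of 2.14 ± 0.59 (limma adjusted p = 0.00935). Ugt2b36 rose by 2.73 ± 0.95 (limma adjusted p = 0.0329) and Ugt2b38 by 1.83 ± 0.65 (limma adjusted p = 0.0366). These 2 calls were each lost in 3 of 6 fits without 1 array (limma adjusted p up to 0.157 and 0.159). Mgst3 rose by 1.63 ± 0.22 (limma adjusted p = 7.19e-05). Sult1b1, Ugt2b34 and Gsta1, at differences of 2.53, 1.98 and 2.26, missed the threshold without a block and passed with the culture as a block (limma adjusted p = 0.00344, 0.0245 and 0.01).
The genes that fell were of the glutathione classes. Gsta3 gave 0.59, 1.63 and -0.72 in base medium and 3.80, 3.98 and 3.81 in ENSW, a difference of -3.37 ± 0.58 (limma adjusted p = 0.000411). All 7 mu genes were lower in base medium and 4 were called: Gstm1 (-2.16 ± 0.80, limma adjusted p = 0.0424), Gstm3 (-2.17 ± 0.78, limma adjusted p = 0.0373), Gstm4 (-1.63 ± 0.52, limma adjusted p = 0.0211) and Gstm5 (-0.76 ± 0.24, limma adjusted p = 0.0191). Mgst1, the microsomal enzyme of broad substrate range, fell by 1.92 (limma adjusted p = 0.0391) and Gstp1 by 0.62 (limma adjusted p = 0.0333). The Gstm1, Gstm3 and Mgst1 calls were each lost in 5 of 6 fits without 1 array (up to 0.194, 0.189 and 0.171), Gstm3 also with the mean of its probes (0.117), and Gstm1 and Mgst1 with no filter (0.0566 and 0.0523). The WT culture, with 1 array per medium, gave -0.52 in base medium and 3.97 in ENSW for Gsta3, and 5.35 and 3.60 for Mgst3.

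In BRAF organoids 1 of 39 genes was called, Mgst3, against 1.67% of all genes. It gave 3.84, 4.30 and 4.14 in base medium and 2.44, 2.25 and 2.17 in ENSW, a rise of 1.81 ± 0.22 (limma adjusted p = 0.00534). With the culture as a random block 8 genes rose, against 19.1% of all genes called: Ugt2b36, Ugt2b38, Sult1b1, Sult2b1, Gsta1, Gsta2, Gsta4 and Mgst3. With the line as a fixed block 2 were called, against 2.88% of all genes. In all 3 BRAF cultures 20 of 39 genes moved higher, 0 moved lower and 19 were mixed.
Selected organoids had 0 calls, against 0.00467% of all genes, and 3 members at an unadjusted p under 0.05; with the culture as a block the count was also 0, against 0.014% of all genes, as it was with the line as a block. In all 3 selected cultures 1 gene moved higher, 22 moved lower and 16 were mixed, and in EV cultures 19 moved higher, 12 lower and 8 were mixed. The shares of all genes that moved one way in all 3 cultures of a type were not computed, so these counts describe the members only. The median change over the 39 genes was -0.41 in selected, 0.47 in BRAF and 0.32 in EV organoids, or -0.35, 0.05 and 0.32 with genes below background in a whole group set at their bound. Within slides it was -0.44 and -0.22 for selected, 0.91, 0.27 and 0.54 for BRAF, and 0.64 and 0.27 for EV organoids.

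**Figure D4:**
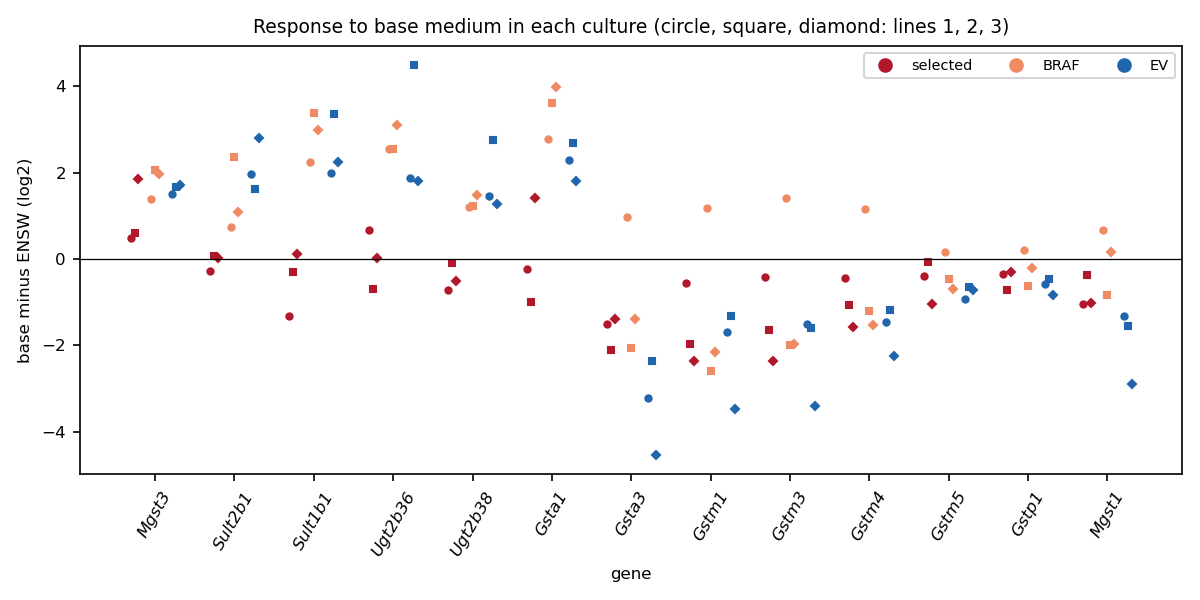
Change in level between media (base minus ENSW, log2, y axis) in each culture for 13 genes along the x axis, with selected, BRAF and EV cultures from left to right within a gene and lines 1, 2 and 3 as circle, square and diamond. Mgst3 is above 0 in all 9 cultures, Sult2b1 and Ugt2b38 are above 0 in all 6 BRAF and EV cultures, and BRAF line 1 lies above the other BRAF lines for Gsta3 and the Gstm genes.

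The difference between responses was tested as an interaction. Over the unblocked arrays 0 of 39 genes were called for BRAF against EV (3.53% of all genes), 0 for selected against EV (24.2%) and 0 for selected against BRAF (0%), with 1, 3 and 3 members at an unadjusted limma p under 0.05. With the culture as a random block 2 genes were called for BRAF against EV (19.8% of all genes), 8 for selected against EV (43.2%) and 0 for selected against BRAF (1.65%). The smallest adjusted p was for Sult2b1, whose change was -0.28, 0.07 and 0.03 in selected cultures and 1.97, 1.62 and 2.82 in EV cultures, a difference of -2.19 (limma adjusted p = 0.00449 with the block and 0.069 without it).

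Selected lines differed widely among themselves. The SD over the 3 selected lines had a median of 0.72 in ENSW and 0.91 in base medium over the 39 genes, against 0.60 and 0.77 in BRAF and 0.53 and 0.48 in EV organoids. The SD was over 2 for 10 genes in selected organoids in ENSW and for 9 in base medium, against 1 in BRAF organoids in each medium and 3 and 0 in EV organoids. The largest was 4.30, for Sult1d1 in selected organoids in base medium. Selected line 1 was not well above background for Sult1b1, Sult1c2 and Sult1d1 in either medium, so their spread and differences include a value at the floor. Line 1 was the lowest selected line for Sult1b1, Sult1c2, Sult1d1, Gsta1, Ugt1a6b and Mgst2 in both media, but the highest for Ugt2b34 and Gstt2.
Other genes also separated single lines. Gstt1, named here because its spread was seen in the values, gave 0.27, -0.51 and -5.78 in selected lines 1, 2 and 3 in base medium, against -0.19, 0.57 and 0.67 in EV lines. Gstt2 gave 2.51, -2.92 and -2.76 in BRAF lines 1, 2 and 3 in base medium, so BRAF line 1 lay above the EV lines and lines 2 and 3 below them.

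The 9 tested genes with no call in any comparison without a block were Gstm2, Gstm6, Gstt1, Gstt3, Sult1a1, Sult2a7, Sult4a1, Sult5a1 and Ugt2b35. Gstt3, the brightest theta probe, gave 2.95, 1.74 and 0.64 in selected and 2.81, 3.05 and 3.08 in EV lines in base medium, a difference of -1.20 ± 0.52 (limma adjusted p = 0.0711, or 0.0489 with the culture as a block). Sult5a1 gave -4.57, -4.69 and -4.18 in selected and -4.56, -4.65 and -4.86 in EV lines in base medium, so the groups overlapped. Sult4a1, a brain-enriched sulfotransferase gene, gave -3.53, -3.44 and -0.47 in BRAF lines in base medium, with line 3 well above lines 1 and 2, against -2.49, -2.09 and -2.06 in EV lines. Ugt2b35 was above background on 5 of 20 arrays.

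Genes that supply or complete these reactions were measured beside the enzymes. Of 10 tested genes of donor supply, 1 rose and 4 fell in selected against EV organoids in ENSW, and 0 rose and 8 fell in base medium, where 25% of all genes were called higher and 23.2% lower (8.7% and 5.15% in ENSW). Slc35d1, which carries UDP-sugars into the endoplasmic reticulum, fell by 4.19 in base medium (SE 0.24, limma adjusted p = 8.47e-08), and the sulfate importer Slc13a1 fell by 7.25 (SE 0.67, limma adjusted p = 2.31e-06). Ugdh, which makes UDP-glucuronate, fell by 2.52 in selected against BRAF organoids in base medium (limma adjusted p = 0.00395). In EV organoids 7 of the 10 rose in base medium over ENSW, against 23.4% of all genes, with Slc35d1 higher by 2.29 ± 0.24 (limma adjusted p = 1.63e-05).
Of 10 glutathione supply genes, 2 rose and 2 fell in selected against EV organoids in base medium, a share below the 48.2% of all genes called. Oplah, the 5-oxoprolinase gene of the glutathione cycle, fell by 3.77 (SE 1.29, limma adjusted p = 0.0265). The cystine importer Slc7a11, a target of Nrf2, rose by 2.21 ± 0.41 in BRAF against EV organoids in base medium (limma adjusted p = 0.00124) and fell by 2.46 in base medium against ENSW in EV organoids (limma adjusted p = 0.000291).

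The 10 genes of the Nrf2 axis, a regulator of several Gst genes, did not move one way. In BRAF against EV organoids 2 rose and 0 fell in ENSW, and 3 rose and 1 fell in base medium, where 6.22% and 31.1% of all genes were called. In selected against EV organoids in base medium 2 rose and 2 fell, against 48.2% of all genes called. Among these were Me1, which makes NADPH, higher by 1.06 ± 0.30 (limma adjusted p = 0.00889), and Nfe2l2, which encodes Nrf2, lower by a difference of -0.84 ± 0.19 (limma adjusted p = 0.00206).
Of 15 tested transcriptional regulators of these enzymes, 2 rose and 7 fell in selected against EV organoids in ENSW and 2 rose and 9 fell in base medium, where 13.8% and 48.2% of all genes were called. The bile acid receptor gene Nr1h4 fell by 9.51 (SE 0.62, limma adjusted p = 1.7e-07) and the vitamin D receptor gene Vdr by 6.68 (SE 0.74, limma adjusted p = 7.65e-06). The aryl hydrocarbon receptor gene Ahr rose by 2.02 ± 0.43 (limma adjusted p = 0.00148).
Of 7 tested conjugate efflux genes 5 fell in selected against EV organoids in base medium (23.2% of all genes called lower), among them Abcb1a, an efflux pump of the ABC family, by 5.24 (SE 0.40, limma adjusted p = 5.76e-07). Of 6 deconjugating genes 2 fell in the same comparison, and of 10 other conjugating enzymes 2 fell, with Nat2, an arylamine N-acetyltransferase, lower by a difference of -2.64 ± 0.31 (limma adjusted p = 1.21e-05).

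Promoter letters were read for 54 RefSeq promoters of 44 member genes in the GRCm38.p6 assembly, each 300 bases from 250 before to 50 after the start, and compared with 32851 promoters of the same length. Motifs were searched on both strands, and a match is a description of letters and not a binding site. The antioxidant response core TGACNNNGC stood in 4 of 54 member promoters (7.41%), those of Gsta3, Gstm5, Gstm7 and Mgst1, and in 12.39% of all promoters. The CDX-type motif TTTATNG stood in 5 (9.26%) and in 10.91% of all, and the HNF4-type motif CAAAGTCCA in 1 (1.85%), that of Sult1b1, and in 0.47% of all. No test was made of these shares.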

How the data were processed

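Single-colour Agilent mouse arrays were read with Feature Extraction 10.7.3.1, per the file headers, and the deposited intensity is its background-corrected processed signal. The submitters' processing notes name limma. A deposited table of log2 values by the authors ranked probes as the median signal did, with medians near 5.7, and served as an alternative.

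Saturated spots numbered 0. Control spots (1377) and 48 outlier spots with uneven pixels were removed. The intensity was taken to log2, the array's 75th percentile was subtracted, and spots of a probe were averaged, giving 39429 probes. A probe was kept if well above background on 3 or more of 18 arrays (26826 probes), and the brightest probe stood for each of 21423 genes. Names were updated through RefSeq by accession for 26581 probes and by symbol for 2597, through an older symbol for 492, and otherwise kept (9759). Group means of 18 arrays were fitted with limma 3.58.1 in R 4.3.3 (12 residual degrees of freedom), with Benjamini-Hochberg adjustment over all genes in each comparison. WT was left out of the fit. A group with no array above background gave an "at least" fold against the higher of the dim probe's own signal and the lowest signal among probes above background.

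Named genes were, per comparison, the 4 largest rises and 4 largest falls among called members, up to 2 more per direction with 1 group below background, the 3 smallest p per direction for responses, the brightest probe of each family, up to 2 called genes per direction of each other list, and Braf, Dusp6 and Krt20; other members were named after their values were seen. The members and lists were chosen with earlier results of these data known. The scripts were tested on simulated data.

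The labels give each culture 1 array per medium, so the culture pairs the media; deviations from group means correlated at 0.423 to 0.874 in 9 of 9 cultures. Lines share numbers across types by label; there correlations were 0.1 to 0.374 between selected and BRAF, over 0.1 in 12 of 12 pairs, but over 0.1 in 5 of 12 pairs of BRAF and EV and in 0 of 12 of selected and EV. Alternatives were the culture and slide as random blocks, the line or slide as a fixed block, no filter on dim probes, normexp (offset 50), quantile normalization, the authors' values, and leaving out each array. 1 item among the accompanying genes is not reported here.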

Additional observations from a re-analysis of the deposited data

Results flagged for a closer look

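With the culture as a random block, the response to base medium (base minus ENSW) differed between organoid types in 10 genes, none of which was called without the block. For BRAF against EV 2 of 39 genes were called with the block, against 19.8% of all genes. Gsta3 differed by 2.54 (limma adjusted p = 0.0184 with the block, 0.0953 without) and Mgst1 by 1.92 (0.0453 with, 0.313 without). Both fell in base medium in EV organoids.

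For selected against EV 8 of 39 genes were called with the block, a share below the 43.2% of all genes. The difference was below 0 in all 8 genes. It was -2.73 for Ugt2b36 (limma adjusted p = 0.0201 with the block, 0.163 without), -2.92 for Ugt2b34 (0.0271 with, 0.24 without) and -2.26 for Ugt2b38 (0.00499 with, 0.0915 without). Among sulfotransferases it was -2.19 for Sult2b1 (0.00449 with, 0.069 without) and -3.03 for Sult1b1 (0.0142 with, 0.172 without). Among glutathione enzymes it was -2.15 for Mgst2 (0.0145 with, 0.189 without), -0.836 for Gsto1 (0.0225 with, 0.195 without) and -1.52 for Gsto2 (0.00979 with, 0.11 without). Ugt2b36 was below background on every selected array, so its response there is not measured. Ugt2b34 was above background in selected line 1 only, and Ugt2b38 on 1 selected array in ENSW and 0 in base medium. Sult1b1 was not above it in selected line 1. The selected responses of these genes therefore include values at the floor.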

How the results depend on the processing

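Of 66 calls on named genes, 38 held without any 1 array, 46 under every other planned setting, 34 under both, and 0 changed sign. Counts of called members in this part compare with 2 and 7 for BRAF minus EV, 14 and 22 for selected minus EV, and 2 and 12 for selected minus BRAF (ENSW, base), 11, 1 and 0 for the media in EV, BRAF and selected organoids, and 0 for each difference of responses. With no filter the counts were 1 for BRAF minus EV and 1 for selected minus BRAF in ENSW, and 1 (BRAF minus EV) and 2 (selected minus EV) for responses. With the slide as a random block they were 1 for selected minus BRAF in ENSW, 17 for the media in EV and 1 for the response of selected minus EV. With the slide as a fixed block they were 6 for selected minus BRAF in base medium, 21 for the media in EV and 6 for that response; comparisons with EV could not be fitted. With the culture as a replicate block they were 25 (EV media), 8 (BRAF media), 2 and 8 (responses of BRAF and selected minus EV), and with the line as a replicate block 2 (BRAF media). Normexp gave 3 (BRAF media) and 4 (response of selected minus EV), the authors' values 2 and 2, and leaving out selected line 1, chosen after seeing the data, 1 for that response. The other counts with a block were within 1.5 times, though for selected minus BRAF in ENSW the fixed slide block shared 0 of its 2 calls with those above.

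Without 1 array at a time the counts ranged from 1 to 5 and 5 to 11 (BRAF minus EV in ENSW and base), 4 to 15 and 19 to 23 (selected minus EV), 0 to 1 and 7 to 14 (selected minus BRAF), 4 to 9 (EV media), 1 to 1 (BRAF media), 0 to 0 (selected media), and 0 to 1, 0 to 3 and 0 to 0 for responses of BRAF minus EV, selected minus EV and selected minus BRAF. The cause of these moves was not tested. Normexp moved the median of all genes by up to 0.16, the authors' values by -0.142, no filter by -0.14 and quantile normalization by 0.112. Signal over background limits the Ugt2b genes, which were dim in selected organoids.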
